A study of Homo sapiens with 6 samples.

Results

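Cells push their edges outward by assembling actin filaments, and the genes described here encode the proteins that start, lengthen, cut, cap and tie together those filaments. They are 49 genes chosen by name for their role in actin assembly, and all 49 were found among the 64253 gene identifiers of the deposited count table. RNA was measured in NCI-H1299, a line of human lung cancer cells, in 3 libraries of cells overexpressing MTSS1 and 3 libraries of wild type cells. The overexpressing cells carried an mCherry-tagged MTSS1 plasmid, were selected with hygromycin and were sorted by flow cytometry, per the labels' protocols, which also mention HEK293T cells for the transfection. No control plasmid was among the samples, so an effect of MTSS1 and an effect of the plasmid, the selection or the sort cannot be told apart. The labels do not say whether the 3 replicates of a group were separate cultures. The p-values therefore measure the spread among the libraries, and that spread may be technical.

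As background, the Arp2/3 complex starts a new filament as a branch on the side of an old one, and it must be switched on by proteins of the WASP and WAVE families. The WAVE protein works inside a complex with a CYFIP, a NCKAP1, an ABI and the small subunit BRK1, and active Rac binds that complex through CYFIP. Formins and Ena/VASP proteins hold the growing end of a filament and lengthen it. Profilin and thymosin hold the monomers, cofilin and gelsolin cut filaments, and capping protein stops their growth. Filamins, actinins, fascin and plastin join finished filaments into networks or bundles. MTSS1 is a membrane-bending protein with an I-BAR domain that also binds actin monomers.

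The libraries of the overexpressing group held 13883380, 25741708 and 25253250 counts (replicates 1 to 3), and those of the wild type group 19018751, 29479453 and 26736187. MTSS1 stood at 550.3, 544 and 568 CPM in overexpressing libraries, against 24.2, 17.96 and 24.3 CPM in wild type libraries (a 25.1-fold difference, log2 fold change 4.65 with SE 0.13, edgeR adjusted p = 3.62e-07). CPM are read counts divided by library size, adjusted by TMM factors, so that libraries of different depth can be compared. A first principal component with 34.8% of the variance placed replicate 1 of each group apart from the other 4 libraries, and the second (32.9%) separated the groups. The labels name the line as lung adenocarcinoma. Of 10 epithelial and lung adenocarcinoma markers, 4 reached 1 CPM in any library, the surfactant gene SFTPB had 0 counts and CDH1 and KRT19 had at most 0.160 CPM. Summed over that list, levels were 259 to 469.9 CPM in overexpressing and 571 to 853 CPM in wild type libraries, mostly from KRT8 and KRT18, both lower in overexpressing libraries. The sum does not stand for the whole list. NKX2-1 was higher, with 2.35 to 2.92 CPM in overexpressing and 0.628 to 1.59 CPM in wild type libraries. So were KRT7 (1.40 to 2.00 against 0.563 to 1.11 CPM) and EPCAM (0.807 to 0.955 against 0.397 to 0.638 CPM), all at low levels. The 4 mesenchymal markers, vimentin foremost, summed to 4776 to 4997 CPM in overexpressing and 4443 to 4666 CPM in wild type libraries. Vimentin and FN1 were higher in overexpressing libraries without overlap. ZEB1 (59.1 to 75.2 CPM in overexpressing, 60.2 to 69.2 CPM in wild type libraries) and CDH2 (73.8 to 89.9 against 78.8 to 95.1 CPM) overlapped between the groups. Leukocyte, erythroid and endothelial markers summed to at most 2.96, 0.692 and 0.440 CPM in overexpressing libraries, against at most 2.98, 0.526 and 1.95 CPM in wild type libraries. The part of these marker differences in the results on actin genes was not tested.

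Most of the actin assembly genes differed by less than 0.5 on the log2 scale between the groups. Of the 49 genes, 5 passed the threshold, an edgeR adjusted p under 0.05 over all 16091 tested genes, and 44 did not. FLNA, CYFIP2 and EVL rose in overexpressing cells, and CYFIP1 and FMNL3 fell. Across all tested genes 4.28% passed (1.82% higher and 2.45% lower). The log2 fold changes of 46 of the 49 lay within 0.5 of 0. The share of all tested genes within 0.5 was not computed, so that count only describes these genes. The median over the 49 was -0.0065, beside 0.0046 over all tested genes. CPM did not overlap between the groups for 6 genes that were higher and 9 that were lower, where 25.5% of all tested genes had no overlap (12.1% higher and 13.5% lower). All 49 had enough counts to be tested, with at least 82 counts in every library. In cells measured in bulk, a change in every cell and a change in the share of cells that express a gene cannot be told apart.

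With the libraries of neighbouring title numbers taken as pairs (a replicate block), 19 of the 49 genes passed, 6 higher and 13 lower, where 22.7% of all tested genes did (10.7% higher and 12% lower). In fits that left out 1 library, whichever of the 6 it was, 1 or 2 of the 49 passed. Calls over all tested genes fell as well in those fits, from 688 to between 145 and 346. CYFIP1 passed in all 6 of those fits and FLNA in 5, while CYFIP2, EVL and FMNL3 passed in none.

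**Figure D1:**
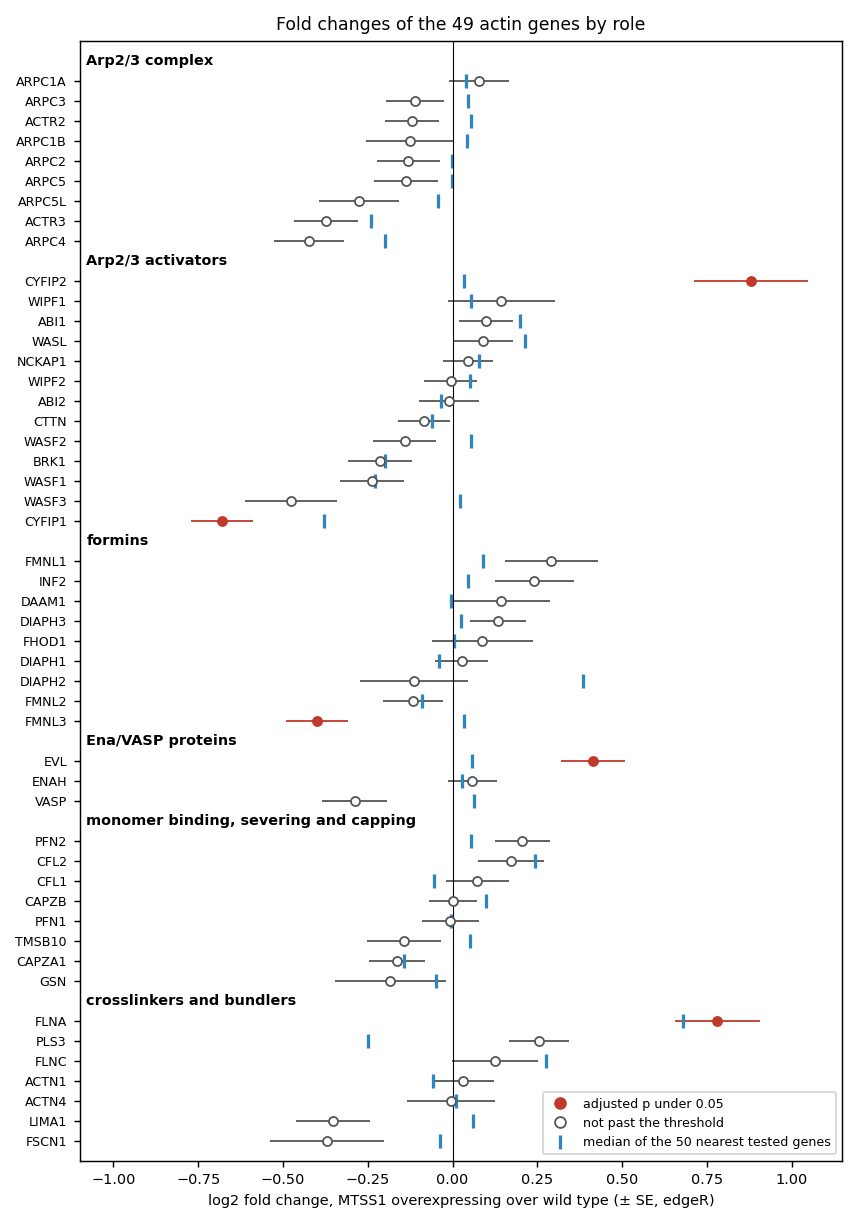
Log2 fold change (MTSS1 overexpressing over wild type, with its SE, n = 3 libraries per group) of each of the 49 genes, in 6 groups by role and ordered by fold change within each. Red points passed an edgeR adjusted p of 0.05, and blue ticks mark the median log2 fold change of the 50 nearest tested genes on the chromosome. The 5 red points are CYFIP2, CYFIP1, FMNL3, EVL and FLNA. The blue tick lies close to the point for FLNA and near 0 for CYFIP2, FMNL3 and EVL.

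None of the 9 subunits of the Arp2/3 complex passed the edgeR threshold. An unadjusted edgeR p under 0.05 was found for 3 of the 9 (ARPC4, ACTR3 and ARPC5L), beside 19.8% of all tested genes. DESeq2 called 2 of the 9 (ARPC4 and ACTR3), beside 7.79% of all tested genes, and 8 of the 9 had log2 fold changes below 0, as did 49.4% of all tested genes. The median of the 9 was -0.13. ARPC4, a structural subunit, had 47.4, 42.5 and 40.8 CPM in overexpressing libraries, against 64.9, 56.3 and 54.1 CPM in wild type libraries. All 3 overexpressing values were below all 3 wild type values (log2 fold change -0.42 with SE 0.10, edgeR adjusted p = 0.054). ACTR3, which encodes the actin-like subunit Arp3, had 340.1, 343 and 379 CPM in overexpressing libraries, against 441, 424 and 509.9 CPM in wild type libraries. Here too the groups did not overlap (log2 fold change -0.37 with SE 0.09, edgeR adjusted p = 0.0585). With the replicate block, ARPC4 (edgeR adjusted p = 0.000734), ACTR3 (edgeR adjusted p = 0.000265) and ARPC5L (edgeR adjusted p = 0.00844) passed, all lower, beside 22.7% of all tested genes. Relative to the 50 nearest tested genes on the chromosome, ARPC4, ACTR3 and ARPC5L did not pass (edgeR adjusted p = 0.351, 0.586 and 0.406). None of them passed in any fit that left out 1 library. ACTR2, the partner of Arp3 at the branch, had 446, 436 and 433 CPM in overexpressing libraries, against 497, 438 and 494 CPM in wild type libraries. Those ranges overlapped (log2 fold change -0.12 with SE 0.08, edgeR adjusted p = 0.473). The only subunit above 0 was ARPC1A (log2 fold change 0.08 with SE 0.09, edgeR adjusted p = 0.703). In GENCODE release 29, 58.4% of the exon bases of ARPC1A and 32.4% of those of ARPC1B are shared with exons of other genes on the same strand, and 15.0% of those of ARPC4 are, with the read-through gene ARPC4-TTLL3. The counts of these 3 genes are therefore uncertain. Summed over the complex, levels were 1880 ± 33.5 CPM in overexpressing and 2092 ± 155 CPM in wild type libraries (SD, n = 3 each).

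Among the 13 genes that switch the Arp2/3 complex on, the CYFIP pair moved in opposite directions. CYFIP1, the CYFIP that had the higher level, stood at 63.5, 56.3 and 59.2 CPM in overexpressing libraries, against 91.9, 105 and 89.6 CPM in wild type libraries. Every overexpressing library was below every wild type library, and CYFIP1 fell (log2 fold change -0.68 with SE 0.09, edgeR adjusted p = 0.00595). CYFIP2 stood at 9.99, 10.7 and 9.37 CPM in overexpressing libraries, against 4.51, 5.76 and 6.01 CPM in wild type libraries. Again the groups did not overlap, and CYFIP2, at its low level, rose (log2 fold change 0.88 with SE 0.17, edgeR adjusted p = 0.0234). CYFIP2 took 13.6, 16.0 and 13.7% of the counts of the pair in overexpressing libraries, against 4.68, 5.20 and 6.28% in wild type libraries. Summed over the pair, levels were 69.7 ± 3.39 CPM in overexpressing and 100.9 ± 8.46 CPM in wild type libraries (SD, n = 3 each). In CPM, the rise of CYFIP2 was thus smaller than the fall of CYFIP1.

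The call for CYFIP1 held with any 1 library left out (edgeR adjusted p 0.0132 to 0.037), and that for CYFIP2 was lost with any 1 left out (0.0549 to 0.0816). Relative to its 50 nearest tested genes on the chromosome, CYFIP1 differed by -0.30 on the log2 scale and did not pass (edgeR adjusted p = 0.156). CYFIP1 lies at chromosome 15, 22867052 to 22981063, minus strand (GRCh38, GENCODE release 29), and CYFIP2 at chromosome 5, 157266079 to 157395595, plus strand. The windows around their start sites are shown because the 2 genes encode alternative subunits of the same complex and moved apart. Each runs from 250 bases before to 50 bases after the RefSeq start (GRCh38.p14; chr15:22980849-22981148, minus strand; chr5:157265873-157266172, plus strand), with GC boxes (GGGCGG on either strand) in capitals.
CYFIP1: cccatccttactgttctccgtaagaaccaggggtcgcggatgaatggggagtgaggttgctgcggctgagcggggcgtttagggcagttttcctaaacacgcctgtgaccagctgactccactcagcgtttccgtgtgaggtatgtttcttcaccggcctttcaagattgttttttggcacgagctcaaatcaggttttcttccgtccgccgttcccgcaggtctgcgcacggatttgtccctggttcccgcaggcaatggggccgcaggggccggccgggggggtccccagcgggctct
CYFIP2: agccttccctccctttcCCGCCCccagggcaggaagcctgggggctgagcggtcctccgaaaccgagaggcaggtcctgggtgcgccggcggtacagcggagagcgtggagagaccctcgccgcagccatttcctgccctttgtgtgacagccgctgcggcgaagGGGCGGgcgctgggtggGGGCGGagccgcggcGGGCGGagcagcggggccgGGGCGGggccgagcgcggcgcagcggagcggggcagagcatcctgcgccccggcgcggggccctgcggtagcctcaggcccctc
The CYFIP2 window holds 5 GC boxes and 76.7% G and C, and the CYFIP1 window holds 0 GC boxes and 60.0% G and C.

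The WAVE genes themselves did not pass. WASF3, which encodes WAVE3, had 10.4, 9.88 and 11.97 CPM in overexpressing libraries, against 13.8, 15.7 and 15.5 CPM in wild type libraries. The groups did not overlap (log2 fold change -0.48 with SE 0.14, edgeR adjusted p = 0.0847). WASF1, which encodes WAVE1, had 47.6, 44.3 and 52.6 CPM in overexpressing libraries, against 56.1, 59.0 and 55.3 CPM in wild type libraries. Its groups did not overlap either (log2 fold change -0.24 with SE 0.09, edgeR adjusted p = 0.194). WASF2, the WAVE gene with the highest level per kilobase, differed by -0.14 on the log2 scale (SE 0.09, edgeR adjusted p = 0.463). BRK1, the small subunit of the WAVE complex, had 54.6, 55.2 and 53.3 CPM in overexpressing libraries, against 57.9, 70.2 and 60.9 CPM in wild type libraries (log2 fold change -0.21 with SE 0.09, edgeR adjusted p = 0.247). With the replicate block, WASF3 (edgeR adjusted p = 0.012), WASF1 (0.0356) and BRK1 (0.0378) passed, all lower. The remaining parts of that complex, NCKAP1, ABI1 and ABI2, had log2 fold changes of 0.05, 0.10 and -0.01, and none of them passed. WASL, which encodes N-WASP, WIPF1 and WIPF2, which encode partners that bind it, and cortactin (CTTN), which steadies branches, had log2 fold changes of 0.09, 0.14, -0.006 and -0.08. None of these passed either. For WASF3 38.3%, for ABI2 38.1% and for CYFIP1 12.8% of exon bases overlap exons on the opposite strand, and the strand setting of the counting is not given in the sources used here.

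Of the 9 formins, FMNL3 fell and the other 8 did not pass. FMNL3, which lengthens filaments at the cell edge, stood at 204, 169 and 193 CPM in overexpressing libraries, against 248, 263 and 235 CPM in wild type libraries. No overexpressing library reached the lowest wild type library (log2 fold change -0.40 with SE 0.09, edgeR adjusted p = 0.0445). The adjusted p lay at 0.0624 to 0.134 with any 1 library left out, so the call was lost each time. FMNL3 lies at chromosome 12, 49636499 to 49708165, minus strand (GRCh38), and 19.7% of its exon bases overlap exons on the opposite strand. FMNL1 had 15.6, 15.7 and 13.4 CPM in overexpressing libraries, against 11.7, 13.5 and 11.3 CPM in wild type libraries. These ranges overlapped only slightly (log2 fold change 0.29 with SE 0.14, edgeR adjusted p = 0.279). INF2, a formin that also cuts filaments, had 144, 137 and 118 CPM in overexpressing libraries, against 130.3, 99.9 and 108 CPM in wild type libraries. The lowest overexpressing value lay within the wild type range (log2 fold change 0.24 with SE 0.12, edgeR adjusted p = 0.297). INF2 passed with the replicate block (edgeR adjusted p = 0.022, higher). The diaphanous formins DIAPH1, DIAPH2 and DIAPH3 had log2 fold changes of 0.03, -0.11 and 0.13. FMNL2, DAAM1 and FHOD1 had -0.12, 0.14 and 0.09.

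Within the Ena/VASP family of elongators, EVL rose, while the more abundant VASP had lower values in overexpressing cells. EVL stood at 50.9, 50.2 and 54.3 CPM in overexpressing libraries, against 41.2, 39.6 and 36.0 CPM in wild type libraries. All 3 overexpressing libraries were above all 3 wild type libraries (log2 fold change 0.41 with SE 0.09, edgeR adjusted p = 0.0409). With any 1 library left out the adjusted p was 0.0751 to 0.156, past the threshold in none of those fits, and relative to its chromosomal neighbours it was 0.103. VASP had 253, 253 and 216 CPM in overexpressing libraries, against 314, 299 and 268 CPM in wild type libraries. The groups did not overlap, and VASP did not pass (log2 fold change -0.29 with SE 0.10, edgeR adjusted p = 0.129), but it did with the replicate block (edgeR adjusted p = 0.00113). ENAH, the gene of the family protein Mena, had 96.3, 94.0 and 96.4 CPM in overexpressing libraries, against 88.5, 94.0 and 92.8 CPM in wild type libraries (log2 fold change 0.06 with SE 0.07, edgeR adjusted p = 0.733). EVL took 12.7, 12.6 and 14.8% of the family's counts in overexpressing libraries, against 9.28, 9.15 and 9.06% in wild type libraries. The family's summed level was 388 ± 18.7 CPM in overexpressing and 424 ± 24.3 CPM in wild type libraries (SD, n = 3 each). EVL lies at chromosome 14, 99971449 to 100144236, plus strand (GRCh38).

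None of the 8 genes for monomer binding, severing and capping passed with edgeR or DESeq2, and 1 of them, PFN2, had an unadjusted edgeR p under 0.05, beside 19.8% of all tested genes. Their median log2 fold change was -0.0027. PFN2, the less abundant of the profilin genes measured here, had 279, 252 and 278 CPM in overexpressing libraries, against 244, 222 and 234 CPM in wild type libraries. The groups did not overlap (log2 fold change 0.21 with SE 0.08, edgeR adjusted p = 0.186; with the replicate block 0.00724). PFN1 had a log2 fold change of -0.0065 (SE 0.08). Of the cofilins, which sever aged filaments, CFL1 had 0.07 (SE 0.09) and CFL2 0.17 (SE 0.10, edgeR adjusted p = 0.381). The subunits of capping protein, CAPZA1 and CAPZB, had -0.16 (SE 0.08) and 0.001 (SE 0.07). TMSB10, which encodes a thymosin that sequesters monomers, had 826, 667 and 683 CPM in overexpressing libraries, against 893, 751 and 760.3 CPM in wild type libraries (log2 fold change -0.14 with SE 0.11, edgeR adjusted p = 0.541). With the replicate block, CAPZA1 (edgeR adjusted p = 0.0276) and TMSB10 (0.0255) passed, both lower. Gelsolin (GSN), which severs and caps, had 142, 147 and 112 CPM in overexpressing libraries, against 139.8, 192 and 123 CPM in wild type libraries. The highest value was that of wild type replicate 2, and the ranges overlapped (log2 fold change -0.18 with SE 0.16, edgeR adjusted p = 0.606).

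Among the 7 crosslinkers, FLNA rose and the other 6 did not pass. FLNA, which encodes filamin A, a flexible dimer that joins filaments into networks and ties them to membrane receptors, stood at 3805, 2999 and 2980 CPM in overexpressing libraries, against 2070, 1965 and 1659 CPM in wild type libraries. The lowest overexpressing library was well above the highest wild type library. Between the groups the difference was 1.72-fold (log2 fold change 0.78 with SE 0.13, edgeR adjusted p = 0.0117). FLNA kept its call without 5 of the 6 libraries, each left out in turn (edgeR adjusted p 0.0224 to 0.0379). The exception was wild type replicate 3, whose removal gave an adjusted p of 0.0555. The call was also lost relative to the 50 nearest tested genes on the chromosome, from which FLNA differed by 0.10 on the log2 scale (edgeR adjusted p = 0.783). FLNA alone took 23.1, 20.9 and 20.8% of the summed CPM of the 49 genes in overexpressing libraries, against 13.9, 14.3 and 12.5% in wild type libraries, not corrected for transcript length. The sum over the 49 was 15044 ± 1217 CPM in overexpressing and 13971 ± 825 CPM in wild type libraries (SD, n = 3 each). Without FLNA it was 11783 ± 746 CPM in overexpressing and 12073 ± 647 CPM in wild type libraries, a difference smaller than the spread.

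FLNA lies at chromosome X, 154348524 to 154374638, minus strand (GRCh38). Its start-site window (RefSeq, GRCh38.p14; chrX:154374585-154374884, minus strand) is shown because FLNA is the crosslinker that rose and its window holds a CArG box, the motif that serum response factor binds in many actin genes. The CArG box and the GC boxes are in capitals.
FLNA: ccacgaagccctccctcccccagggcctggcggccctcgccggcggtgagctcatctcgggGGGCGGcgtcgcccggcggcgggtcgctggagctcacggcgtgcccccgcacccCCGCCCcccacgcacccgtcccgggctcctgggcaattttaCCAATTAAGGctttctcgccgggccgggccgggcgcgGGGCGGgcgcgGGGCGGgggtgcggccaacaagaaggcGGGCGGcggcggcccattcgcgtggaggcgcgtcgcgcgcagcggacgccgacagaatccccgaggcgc
The CArG box, CCAATTAAGG, begins 94 bases before the start, and the window has 5 GC boxes and 78.3% G and C. RefSeq windows were found for 44 of the 49 genes, 73 windows in all. A CArG box was in 2 of them, those of FLNA and ACTN1 (CCAAAAATGG, beginning 171 bases before the start), and in 1.29% of all 35116 windows. A GC box was in 53 of the 73 (72.6%) and in 45.0% of all windows, with a median G and C content of 68.3% over the 73 and 58.7% over all windows. ACTN1, which shares the CArG box with FLNA, had 774, 664 and 684 CPM in overexpressing libraries, against 749, 666 and 661 CPM in wild type libraries. Its ranges overlapped (log2 fold change 0.03 with SE 0.09, edgeR adjusted p = 0.901). A match to these letters is no measure of binding.

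Of the other crosslinkers, the filamin gene FLNC, best known from muscle, had 1605, 1216 and 1256 CPM in overexpressing libraries, against 1362, 1275 and 1099 CPM in wild type libraries. The ranges overlapped (log2 fold change 0.13 with SE 0.13, edgeR adjusted p = 0.659). PLS3, which encodes the bundler plastin 3, had 225, 246 and 262 CPM in overexpressing libraries, against 189, 212 and 213 CPM in wild type libraries. All overexpressing values were above all wild type values (log2 fold change 0.26 with SE 0.09, edgeR adjusted p = 0.141), and PLS3 passed with the replicate block (edgeR adjusted p = 0.00264). LIMA1, which encodes EPLIN, a protein that stabilises bundles, had 131, 124 and 152 CPM in overexpressing libraries, against 161, 162 and 196 CPM in wild type libraries. Those groups did not overlap (log2 fold change -0.35 with SE 0.11, edgeR adjusted p = 0.107; with the replicate block 0.000557). Fascin (FSCN1), the bundler of filopodia, had 156, 118 and 109 CPM in overexpressing libraries, against 204, 137 and 152 CPM in wild type libraries. Replicate 1 was the highest library in both groups, and the ranges overlapped (log2 fold change -0.37 with SE 0.17, edgeR adjusted p = 0.264; with the replicate block 0.00117, lower). ACTN4, an actinin, differed by -0.0045 on the log2 scale (SE 0.13, edgeR adjusted p = 0.989).

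**Figure D2:**
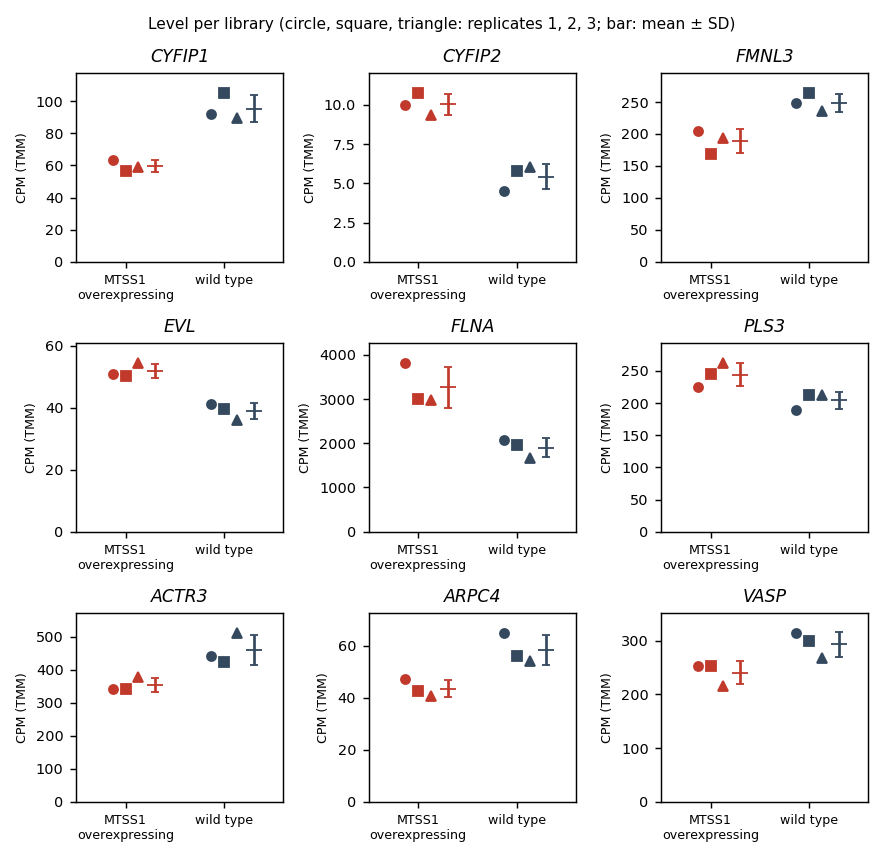
Level in CPM (linear axes from 0) of 9 genes in each of the 3 MTSS1 overexpressing (red) and 3 wild type (dark blue) libraries, with the mean and SD beside the points. The groups do not overlap in any of the 9 panels. CYFIP1, FMNL3, ACTR3, ARPC4 and VASP lie lower and CYFIP2, EVL, FLNA and PLS3 higher in overexpressing libraries, and replicate 1 (circles) is the highest FLNA library in both groups.

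Levels can be compared between genes only per length, here as mean CPM per kilobase of the longest transcript at the top principal level (APPRIS). Where a gene had no transcript marked so, its longest transcript was used. The order depends on that choice. Genes with a long form, such as FMNL3 (12.6 kb) and ABI2 (22.2 kb), get a low value if shorter forms are expressed. TMSB10 had the highest value, 1463 in overexpressing and 1616 in wild type cells, followed by PFN1 with 443 in overexpressing and 445 in wild type cells. FLNA had 383 in overexpressing and 223 in wild type cells, which placed it at rank 4 of 49 in overexpressing and rank 5 in wild type cells. ACTN4 had 336 in overexpressing and 338 in wild type cells. Within the Arp2/3 complex ARPC1A was highest, with 205 in overexpressing and 194 in wild type cells, though its counts are uncertain because of shared exons. Among the activators of the complex cortactin was highest, with 68.1 in overexpressing and 72.2 in wild type cells. DIAPH1 led the formins with 51.1 in overexpressing and 50.2 in wild type cells, well above FMNL3 with 14.9 in overexpressing and 19.7 in wild type cells. VASP had 104 in overexpressing and 127 in wild type cells, and EVL 14.0 in overexpressing and 10.5 in wild type cells. CYFIP1 had 8.78 in overexpressing and 14.1 in wild type cells and CYFIP2 1.57 in overexpressing and 0.851 in wild type cells. The lowest gene in both groups was DIAPH2, with 0.693 in overexpressing and 0.751 in wild type cells. Across the 49 genes the median coefficient of variation within a group was 6.89% in overexpressing and 7.92% in wild type libraries.

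**Figure D3:**
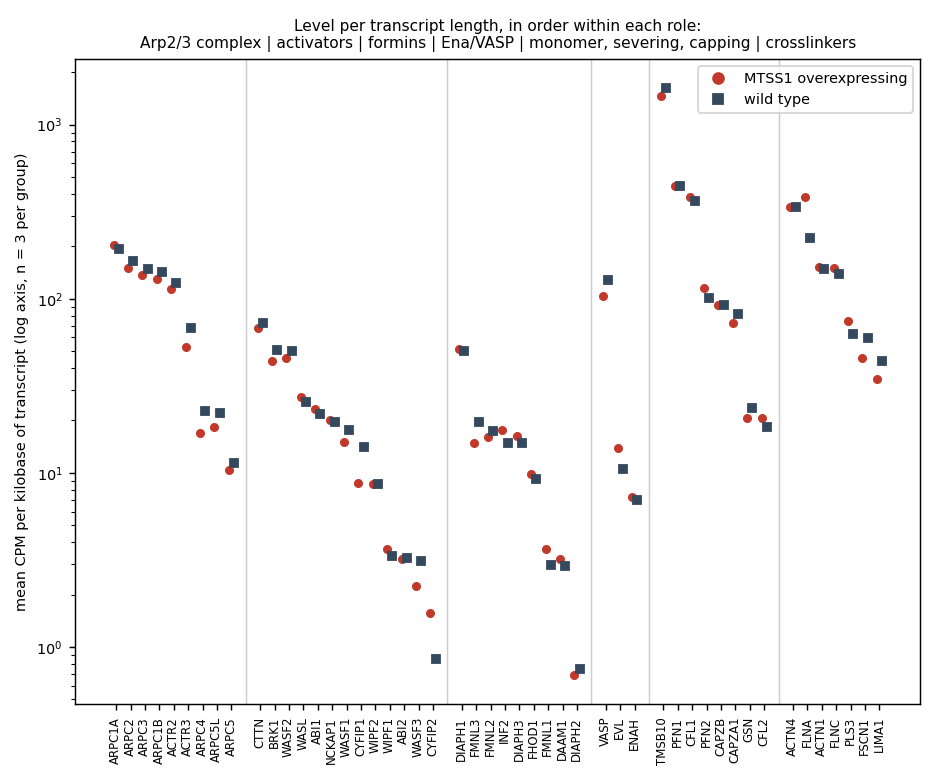
Mean level of each of the 49 genes in CPM per kilobase of transcript (log axis, n = 3 libraries per group), red circles for MTSS1 overexpressing and dark blue squares for wild type, ordered by the wild type level within each role. TMSB10 is highest at 1463 in overexpressing and 1616 in wild type cells, and the pairs of points separate visibly for FLNA, CYFIP1 and CYFIP2.

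Ratios of related genes within a library do not depend on the scaling between libraries. They were computed for 17 pairs as the log2 ratio of counts, not corrected for length. The groups did not overlap for 7 pairs, 5 with a higher and 2 with a lower ratio in overexpressing cells. No share over other gene pairs was computed, so this count is not a result about actin genes. For single genes, 25.5% of all tested genes had no overlap. Among the 7, CYFIP1 over CYFIP2, FLNC over FLNA and EVL over VASP each hold a gene that passed the edgeR threshold. In the exact permutation test (two-sided) each of the 7 had p = 0.1, the smallest that 3 libraries against 3 allow, and 0.243 after Benjamini-Hochberg adjustment over the 17 pairs, so none could pass.

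The largest of these differences was in CYFIP1 over CYFIP2. That log2 ratio was 2.66, 2.39 and 2.66 in overexpressing and 4.34, 4.18 and 3.89 in wild type libraries, a difference of -1.57. CYFIP1 thus had 5.94 counts for each CYFIP2 count in overexpressing cells and 17.6 in wild type cells. The ratio of FLNC to FLNA was -1.24, -1.30 and -1.25 in overexpressing and -0.60, -0.62 and -0.59 in wild type libraries on the log2 scale, with little spread within either group (difference -0.66). For EVL over VASP it was -2.31, -2.33 and -1.99 in overexpressing and -2.93, -2.92 and -2.90 in wild type libraries (difference 0.70). In the other 4 pairs without overlap the differences were 0.41 for FMNL1 over FMNL2, 0.35 for ENAH over VASP, 0.21 for PFN2 over PFN1 and 0.13 for ARPC5 over ARPC5L. The smallest difference of the 17 was that of ACTN1 over ACTN4, 0.04, and its groups overlapped. Pairs that share VASP, FMNL2, WASF2 or DIAPH1 are not independent of each other.

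**Figure D4:**
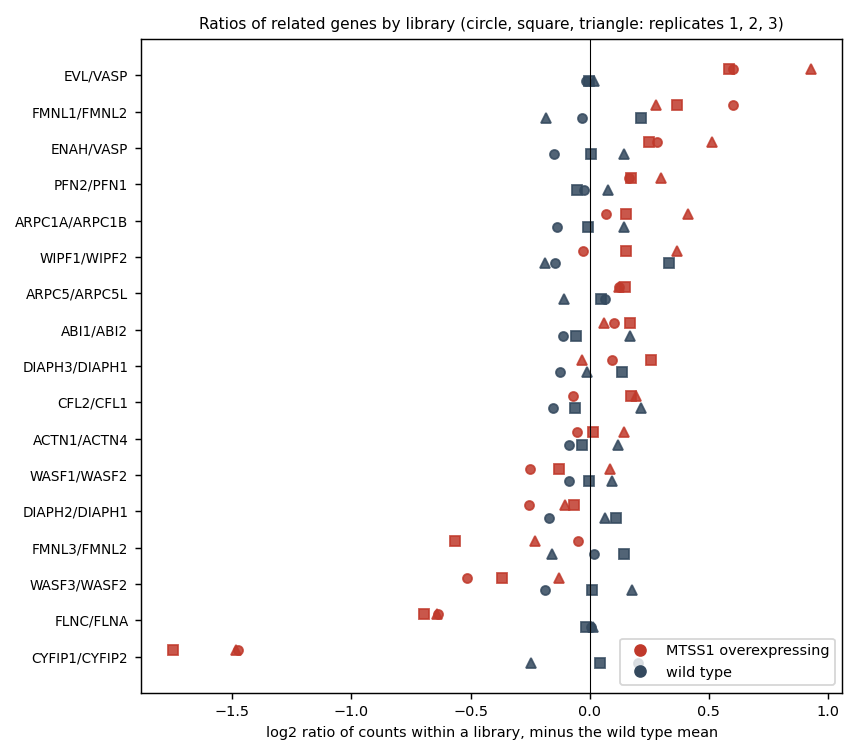
Log2 ratio of the counts of related genes in each library, minus the wild type mean of that ratio, for 17 pairs (red for MTSS1 overexpressing, dark blue for wild type, each symbol a replicate). The overexpressing libraries lie 1.57 below the wild type mean for CYFIP1 over CYFIP2 and 0.66 below it for FLNC over FLNA, and 0.70 above it for EVL over VASP.

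The level of a gene was also set beside that of its neighbours on the chromosome, the 50 nearest tested genes. The neighbours of FLNA, over 2.12 Mb of chromosome X, had a median log2 fold change of 0.68, close to the 0.78 of FLNA itself. The neighbours of CYFIP1 had a median of -0.38, where CYFIP1 had -0.68. In the fit with that median as an offset, the neighbour offset, the calls of these 2 genes were lost, and so was that of EVL, whose neighbours stood at 0.06 (difference 0.36, edgeR adjusted p = 0.103).

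CYFIP2 and FMNL3 kept their calls against their neighbours. CYFIP2 differed by 0.85 (edgeR adjusted p = 0.0387) from neighbours at 0.03, and FMNL3 by -0.44 (edgeR adjusted p = 0.0481) from neighbours at 0.04. PLS3, also on chromosome X but among neighbours at -0.25, differed from them by 0.50 and passed in this fit (edgeR adjusted p = 0.0235). Of the 49 genes, 3 passed it, 2 higher and 1 lower, where 2.09% of all tested genes did (0.764% higher and 1.33% lower). ARPC4 and BRK1 lie near each other on chromosome 3, among neighbours at -0.20, and ACTR3 lies among neighbours at -0.24 and WASF1 at -0.23. For these 4 genes the difference from the neighbours was -0.22, -0.01, -0.13 and -0.01. The opposite case was DIAPH2, the remaining member on chromosome X, with a log2 fold change of -0.11 among neighbours at 0.38 (edgeR adjusted p = 0.18 with the offset). A neighbour median beyond 0.2 in either direction was found for 9 of the 49 genes and for 14.8% of all tested genes. What moved the neighbours was not tested.

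**Figure D5:**
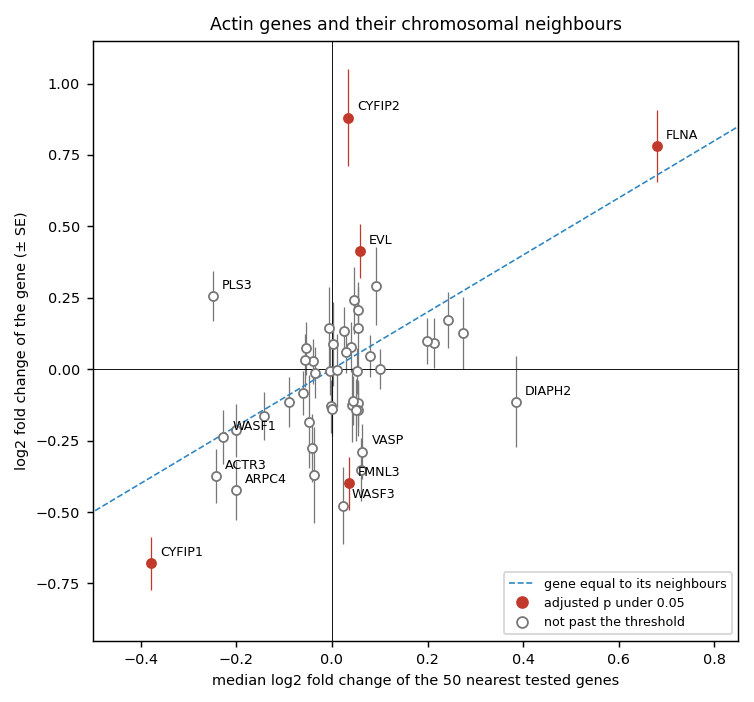
Log2 fold change of each of the 49 genes (vertical, with SE) against the median log2 fold change of its 50 nearest tested genes (horizontal), both MTSS1 overexpressing over wild type. The dashed line marks a gene equal to its neighbours. FLNA lies near that line at 0.68 on the horizontal axis, CYFIP1 lies at -0.38, and CYFIP2, EVL and FMNL3 lie near 0 on the horizontal axis and away from the line.

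Of 84 other actin genes, grouped by role, 66 could be tested and 7 passed, 4 higher and 3 lower (10.6%, beside 4.28% of all tested genes). Their median log2 fold change was 0.0067. AIF1L, which encodes an actin bundler, had 12.9, 14.6 and 13.6 CPM in overexpressing libraries, against 7.0, 6.45 and 5.93 CPM in wild type libraries. AIF1L rose (log2 fold change 1.09 with SE 0.14, edgeR adjusted p = 0.00496) and passed with any 1 library left out. The GTPase gene RAC3, whose Rac relatives switch on the WAVE complex, had 38.5, 37.3 and 30.1 CPM in overexpressing libraries, against 26.2, 20.4 and 20.8 CPM in wild type libraries and rose (log2 fold change 0.65 with SE 0.14, edgeR adjusted p = 0.0357). ACTA2, the smooth muscle actin, rose (log2 fold change 0.70 with SE 0.14, edgeR adjusted p = 0.0243), as did SVIL, which encodes the membrane linker supervillin (log2 fold change 0.39 with SE 0.08, edgeR adjusted p = 0.0359). PAK1, a kinase downstream of Rac, had 44.5, 48.4 and 44.9 CPM in overexpressing libraries, against 66.4, 66.3 and 66.5 CPM in wild type libraries and fell (log2 fold change -0.53 with SE 0.08, edgeR adjusted p = 0.0101). The nucleator gene SPIRE1 also fell (log2 fold change -0.45 with SE 0.10, edgeR adjusted p = 0.0352). With 1 library left out, PAK1 passed in 4 of the 6 fits, RAC3 and SVIL in 1, and ACTA2 and SPIRE1 in none. With the neighbour offset AIF1L and ACTA2 kept their calls, and PAK1 (difference -0.22, edgeR adjusted p = 0.253), SPIRE1 (-0.23, 0.295), SVIL (0.21, 0.285) and RAC3 (0.56, 0.0903) lost theirs. The cytoplasmic actin genes did not pass. ACTB had 3289, 2598 and 2670 CPM in overexpressing libraries, against 3106, 2444 and 2601 CPM in wild type libraries, and ACTG1 had 3473, 2960 and 2648 CPM in overexpressing libraries, against 3039, 3046 and 2517 CPM in wild type libraries. Their log2 fold changes were 0.07 and 0.08, and the ranges of both overlapped. With the replicate block, 22 of the 66 passed (10 higher and 12 lower), beside 22.7% of all tested genes.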

How the data were processed

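Poly(A) RNA of 6 libraries was sequenced as single reads of 50 cycles from a directional kit, per the labels' protocols. The deposited values are whole-number counts of reads for each Ensembl gene, not normalized, which the authors made with bcl2fastq, HISAT2 2.1.0, HTSeq and GRCh38, per the submitters' processing notes. The sources used here give neither the annotation release nor the strand setting. Symbols and coordinates were matched for 56591 of 64253 identifiers (GENCODE release 29 on GRCh38).

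Counts were tested with edgeR 4.0.16 (R 4.3.3) with TMM scaling, the filterByExpr filter and the quasi-likelihood test, two-sided, with Benjamini-Hochberg adjustment over 16091 genes and a threshold of 0.05. The biological coefficient of variation was 0.162. The steps were also run on simulated counts with known fold changes. All genes there shared a single dispersion, so that run gives no error rates for these data. Paralog ratios used counts plus 0.5. DESeq2 1.42.0, RLE scaling, other filters, fits leaving out libraries, the replicate block and the neighbour offset were alternatives. The members, lists and tests were chosen with earlier results of these data known. Named genes are the members past the threshold, in each role up to 4 with the smallest adjusted p and the highest per kilobase, and other actin genes past the threshold, of which 1 is not reported here. Members named beyond that rule were picked with their values in view.

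The titles hold numbers that fall in 3 neighbouring pairs of an overexpressing and a wild type library. Across genes, deviations from the means of the groups had correlations of 0.66, 0.34 and 0.38 in these pairs. Between other libraries of different groups they were -0.40 to 0.10, and the pairs were used as a replicate block. Deviations within a group cancel out for each gene, so high values in the pairs push the others down. The use of the block was thus decided from the same counts that it then tests. No label states what neighbouring numbers have in common. No 2 replicates were alike within sampling noise (chi-square of 14.7 to 28.0 for each degree of freedom).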

Additional observations from a re-analysis of the deposited data

How the results depend on the processing

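The 5 calls among the 49 genes became 8 with DESeq2 (3 higher and 5 lower), 9 with no low count filter (3 and 6), 19 with the replicate block (6 and 13), 2 without both replicate 1 libraries (1 and 1), 3 with the neighbour offset (2 and 1) and 1 to 2 without 1 library (0 to 1 higher, 1 lower). Over all tested genes 688 calls (293 higher, 395 lower) became 1253 (562 and 691), 1489 (679 and 810), 3651 (1716 and 1935), 132 (56 and 76) and 337 (123 and 214) in the same order, and 145 to 346 without 1 library (59 to 148 higher, 86 to 198 lower). The fits with another filter or with fewer libraries tested other sets of genes. The sizes of those sets are not given here, so these counts have no share beside them. Of the other actin genes, 7 calls (4 higher, 3 lower) became 22 with the replicate block (10 and 12), 1 without both replicate 1 libraries (1 and 0), 3 with the neighbour offset (2 and 1) and 1 to 3 without 1 library (1 to 2 higher, 0 to 2 lower). RLE scaling and the filter at 1 CPM left the counts for the 49 genes at 5. The members' median of -0.0065 was -0.033 with the neighbour offset and -0.057 to 0.0034 without 1 library. Without 1 library the CYFIP1 to CYFIP2 log2 ratio differed by -1.69 to -1.47 between the groups, that of FLNC to FLNA by -0.67 to -0.64 and that of EVL to VASP by 0.59 to 0.77. Neither RLE scaling nor any other alternative turned a named gene's call the other way. Among the 49 genes the replicate block changed no other call than those printed in the text. DESeq2 added ARPC4, ACTR3 and LIMA1 to the 5. Without both replicate 1 libraries, CYFIP1 and FLNA remained past the threshold, and CYFIP2 (edgeR adjusted p = 0.163), EVL (0.163) and FMNL3 (0.131) did not. The cause was not tested. Leaving out libraries leaves fewer residual degrees of freedom, so lost calls there say little about the size of a difference. Depth limits the precision most for DIAPH2, with 82 to 213 counts a library, and CYFIP2, with 85 to 279.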

Other observations

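Among the 49 genes, 17 (34.7%) had their highest level in replicate 1 of both groups, as did 18.1% of all tested genes, and 4 had their lowest level there, as did 18.7% of all tested genes. FLNA, FSCN1, TMSB10, PFN1 and ACTN4 were among the 17.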
